A study of Mus musculus with 6 samples.

Results

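The 10 genes described here are imprinted, that is, expressed mainly from the chromosome inherited from one parent. They were taken by name (Igf2, H19, Kcnq1ot1, Igf2r, Airn, Dlk1, Meg3, Gnas, Peg3 and Slc38a4) from 49943 genes of the RefSeq annotation, and all 10 were found. Of these, 6 are protein-coding and 4 produce long non-coding RNAs (lncRNAs). Accessibility was measured by ATAC-seq, which reads open chromatin from the adapters that Tn5 transposase cuts into it. Whole cells were treated, from mouse embryonic fibroblasts that c-myc had immortalised. The values come from 1 list of accessible intervals of Ezh2 -/- cells (line C2, 2 samples). These cells lack EZH2, a catalytic subunit of Polycomb repressive complex 2. The Ezh2 -/- cells with retroviral pMSCV-Ezh2 (2 samples) and the wild-type cells (2 samples) were not analysed here, so nothing below compares genotypes. All 3 groups derive from the same immortalised line. The list holds no value per replicate and no read counts, so no replicate error can be given and the depth is unknown. It does not separate the parental alleles either.

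The list held 21759 intervals on the chromosomes, in 19147 called regions whose total signal (area under the coverage, in the authors' unit) was at least 15316, with a median of 29070. The maximum signal (height of the coverage, in the authors' unit) had a median of 27. Of 10 fibroblast marker genes, 8 had an interval within 1 kb of a gene end, and of 14 markers of other cell types 1 did, the astrocyte gene Gfap. Among all protein-coding genes, 47.4% had one. Ezh2 had an interval at 1 end (maximum signal 61). Which part of the gene was deleted is not stated, so that interval does not check the genotype.

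At imprinted loci, DNA methylation laid down in one germ line marks a control region, and that mark decides which parental copy is read. Some of these control regions work through a long non-coding RNA: Airn and Kcnq1ot1 are transcribed from the paternal copy and silence neighbouring genes in cis, in part with Polycomb complexes. The lncRNAs H19 and Meg3 are read from the maternal copy. Igf2, Dlk1, Peg3 and Slc38a4 are paternally expressed, Igf2r is maternally expressed, and Gnas has several promoters with different parental origin. In early mouse embryos the maternal copy of Slc38a4 carries Polycomb-dependent H3K27 methylation, a form of imprinting that does not begin with DNA methylation.

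The promoter windows of 7 of the genes are shown because they divide the set into starts that lie under an interval and starts that do not. Each runs from 250 bp before to 50 bp after the first listed start (RefSeq, GRCm38.p6, the assembly behind mm10), 5′ to 3′ on the gene's strand. Capitals mark the letters CCAAT (the sequence bound by NF-Y) and GGGCGG (the GC box of Sp1) on either strand. The starts of the first 4 lay under an interval and those of the last 3 did not.
Kcnq1ot1, chr7:143296498-143296797, minus strand: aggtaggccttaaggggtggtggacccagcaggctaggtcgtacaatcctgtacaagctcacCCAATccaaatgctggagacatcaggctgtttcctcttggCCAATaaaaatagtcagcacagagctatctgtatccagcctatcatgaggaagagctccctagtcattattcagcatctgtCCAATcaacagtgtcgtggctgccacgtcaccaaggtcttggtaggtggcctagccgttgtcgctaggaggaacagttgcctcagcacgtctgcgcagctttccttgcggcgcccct
Igf2r, chr17:12769657-12769956, minus strand: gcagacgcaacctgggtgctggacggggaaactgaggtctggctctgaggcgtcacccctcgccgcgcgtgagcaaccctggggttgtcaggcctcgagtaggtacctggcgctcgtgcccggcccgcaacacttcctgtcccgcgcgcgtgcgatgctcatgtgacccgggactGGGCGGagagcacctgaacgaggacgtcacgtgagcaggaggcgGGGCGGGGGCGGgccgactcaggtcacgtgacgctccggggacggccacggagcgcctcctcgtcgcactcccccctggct
Slc38a4, chr15:97055907-97056206, minus strand: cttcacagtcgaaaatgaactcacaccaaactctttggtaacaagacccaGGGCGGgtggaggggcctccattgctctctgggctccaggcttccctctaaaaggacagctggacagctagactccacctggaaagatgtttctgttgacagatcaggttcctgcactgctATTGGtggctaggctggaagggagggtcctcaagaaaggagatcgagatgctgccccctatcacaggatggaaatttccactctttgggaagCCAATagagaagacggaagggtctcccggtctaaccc
Dlk1, chr12:109452573-109452872, plus strand: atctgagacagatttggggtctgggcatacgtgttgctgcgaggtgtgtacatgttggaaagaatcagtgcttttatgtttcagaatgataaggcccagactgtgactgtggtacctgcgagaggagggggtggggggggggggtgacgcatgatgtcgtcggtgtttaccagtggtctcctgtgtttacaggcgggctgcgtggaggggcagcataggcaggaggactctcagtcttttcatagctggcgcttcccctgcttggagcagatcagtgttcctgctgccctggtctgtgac
Airn, chr17:12741061-12741360, plus strand: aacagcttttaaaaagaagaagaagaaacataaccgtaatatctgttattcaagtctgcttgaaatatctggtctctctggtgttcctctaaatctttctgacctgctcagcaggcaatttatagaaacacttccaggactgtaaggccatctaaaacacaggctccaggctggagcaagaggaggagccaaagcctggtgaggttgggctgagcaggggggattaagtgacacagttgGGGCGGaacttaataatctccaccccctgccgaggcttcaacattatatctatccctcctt
Meg3, chr12:109540746-109541045, plus strand: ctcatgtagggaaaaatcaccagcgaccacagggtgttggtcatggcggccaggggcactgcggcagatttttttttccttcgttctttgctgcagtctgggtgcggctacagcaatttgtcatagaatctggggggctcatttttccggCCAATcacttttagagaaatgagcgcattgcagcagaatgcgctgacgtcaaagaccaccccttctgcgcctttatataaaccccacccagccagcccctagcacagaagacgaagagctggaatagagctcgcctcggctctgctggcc
Peg3, chr7:6730370-6730669, minus strand: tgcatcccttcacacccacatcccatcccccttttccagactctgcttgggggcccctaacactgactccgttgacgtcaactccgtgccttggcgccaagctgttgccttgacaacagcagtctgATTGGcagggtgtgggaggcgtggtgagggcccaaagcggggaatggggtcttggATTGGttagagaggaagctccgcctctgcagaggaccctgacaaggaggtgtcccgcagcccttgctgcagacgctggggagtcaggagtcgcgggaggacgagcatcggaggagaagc

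An interval within 1 kb of either gene end was present at 5 of the 10 genes, namely Kcnq1ot1, Igf2r, Dlk1, Gnas and Slc38a4. Among the 4 lncRNA genes 1 (25%) had one, Kcnq1ot1, and 20.8% of all 12727 lncRNA genes did. Among the 6 coding genes 4 (66.7%) had one, and 47.4% of all 21887 protein-coding genes did. With 4 and 6 genes these counts are a description, and no test was made. Over the gene body, intervals lay on 6 of the 10, since Airn joined the other 5. The body was covered at 4 of 6 coding genes, against 52.8% of all protein-coding genes, and at 2 of 4 lncRNA genes, against 23% of all lncRNA genes. Longer genes more often hold an interval. Igf2r, Gnas and Slc38a4, the 3 coding genes of 50 to 150 kb, all did, as did 68.8% of all protein-coding genes of that length. Igf2, H19, Meg3 and Peg3 had no interval over the gene or at its ends.

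**Figure D1:**
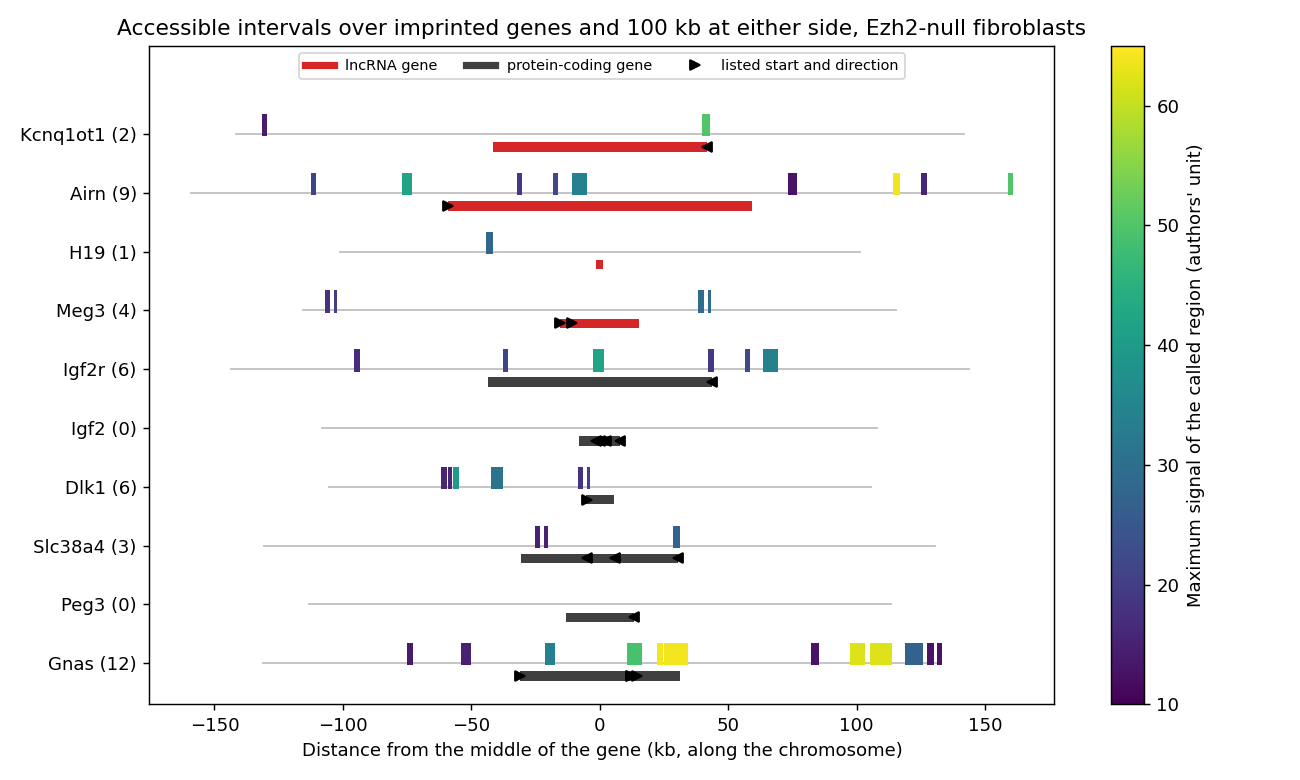
Intervals over each imprinted gene and 100 kb at either side, in Ezh2-null fibroblasts. The horizontal axis is the distance from the middle of the gene in kb along the chromosome, coloured blocks are intervals (colour, maximum signal; the narrowest blocks are widened to be visible), lower bars are genes and triangles are listed starts, with the number of intervals in brackets; Gnas has 12 intervals, and Igf2 and Peg3 have 0.

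Kcnq1ot1, the antisense RNA that starts inside Kcnq1 and silences genes across its domain, was the single one of the 4 lncRNA genes with an interval at its start. The gene lies on chromosome 7 at 143213111 to 143296547 (mm10). An interval of 3173 bp at 143294473 to 143297645 covered its start, total signal 37730 and maximum signal 50. That maximum exceeded those of 80.6% of the 1737 called regions at lncRNA starts, whereas the total signal stood at the middle, above 50.4% of them. The region of maximum lay 30 bp upstream of the listed start, inside the window printed above. The remaining gene body, of 83437 bp in all, held no other interval.

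On one side of Kcnq1ot1, some of the genes that it silences lay in sequence without intervals. No interval was called from 143297646 to 143547925, a stretch of 250 kb that holds Cdkn1c, which encodes a cyclin-dependent kinase inhibitor, the transporter gene Slc22a18 and Phlda2, a gene that restrains placental growth. Their nearer ends were 86.9 kb, 48.6 kb and 44.8 kb from an interval. Of all protein-coding genes, 23.1%, 28.4% and 29.2% were farther from one than Cdkn1c, Slc22a18 and Phlda2 in turn. Of 21739 stretches between neighbouring intervals, 92% were shorter than this one, and the median was 21.9 kb. Kcnq1 itself, which encodes a potassium channel subunit, had 2 intervals over its body (that at the Kcnq1ot1 start and one of 1669 bp with a maximum signal of 14) and none within 1 kb of its ends. Nap1l4, at the far side of the stretch, had a gene-end interval (total signal 50866, maximum signal 50). On the other side of Kcnq1, a called region (total signal 80802, maximum signal 53) touched an end of Cd81, Tssc4 and Trpm5. Tspan32, on that side too, had a gene-end interval (total signal 37685). Beyond Nap1l4, Tnfrsf22 (total signal 18209) and Tnfrsf23 (17714) each had a gene-end interval, and Osbpl5 had 3 intervals over its body. Of the 17 listed neighbours in the distal part of chromosome 7, 8 had a gene-end interval. Among all genes, 47.4% of protein-coding and 20.8% of lncRNA genes had one.

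Airn, the antisense RNA that silences Igf2r, had no interval at its start or its end, and its domain was among the more covered ones. It runs on chromosome 17 from 12741311 to 12859884, out of an intron of Igf2r and over the Igf2r promoter. The interval nearest to its start was 13.7 kb upstream. There were 3 intervals over its body: one at the Igf2r promoter, one of 1951 bp at 12782377 to 12784327 (total signal 17859, maximum signal 22) and one of 5808 bp at 12789743 to 12795550 (total signal 47142, maximum signal 34). The last 2 lie beyond the Igf2r start, outside Igf2r. Of lncRNA genes of 50 to 150 kb, 25.5% had an interval over the body. Intervals covered 7.77% of Airn with 100 kb at either side, more than for 82.7% of lncRNA genes, and of the 9 intervals there 4 stood beyond the gene's upper end, at Mrgprh, Mrpl18, Tcp1, Acat3 and Acat2.

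Igf2r, which encodes the receptor that carries IGF2 to lysosomes, had an interval of low signal at its start and one of higher signal inside the gene. The gene lies at 12682406 to 12769706 on chromosome 17. The interval over its start (2052 bp, at 12768259 to 12770310) reached 21114 in total signal and 19 in maximum signal. That maximum was above those of 6.38% of the 7271 called regions at protein-coding starts, whose median was 38. The region of maximum lay 23 bp upstream of the start, in a window with 34 CpG dinucleotides and 3 GGGCGG matches. An interval of 4221 bp inside the gene, at 12723409 to 12727629, reached 70095 in total signal and 42 in maximum signal, and another, at 12688258 to 12690202, reached 47916 and 21. The neighbouring solute carrier genes Slc22a2 and Slc22a3, which Airn silences in the mouse placenta, had no gene-end interval, nor did Mas1 and Plg. The nearest interval was 1.96 kb from an end of Slc22a2, 5.66 kb from Mas1, 5.84 kb from Plg and 47.2 kb from Slc22a3. Intervals covered 6.35% of Igf2r with 100 kb at either side, more than for 68.7% of protein-coding genes. In the 5 Mb at either side, outside the Igf2r domain, 59.5% of protein-coding genes had one.

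Igf2, a fetal growth factor gene, and H19, the lncRNA gene that shares its enhancers, stood together in 1 stretch without intervals. Igf2 lies at 142650768 to 142666816 and H19 at 142575530 to 142578146 on chromosome 7. No interval was called from 142535422 to 142904822, a stretch of 369 kb, and 94.5% of stretches between intervals were shorter. It also held the insulin gene Ins2 and Th, which encodes tyrosine hydroxylase. The nearest interval was 40.1 kb from H19, at the mitochondrial ribosomal protein gene Mrpl23 (total signal 40126, maximum signal 28), and 115 kb from Igf2. Counted by gene, 45.6% of lncRNA genes were farther from an interval than H19, and 20.7% of protein-coding genes were farther than Igf2. None of the 4 listed starts of Igf2 was nearer than 122 kb to an interval. One of these starts has 24 CpG in its promoter window, and 78.8% of protein-coding starts with 21 CpG or more had an interval within 1 kb. Of the protein-coding genes within 5 Mb but outside the Igf2 domain, 45.4% had a gene-end interval, or 51.4% without vomeronasal and olfactory receptor genes.

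Dlk1, which encodes a Notch-like inhibitor of adipocyte differentiation, had an interval that only just entered the list. It lies at 109452485 to 109463336 on chromosome 12. Its interval (1296 bp, at 109452800 to 109454095) had a total signal of 15361, near the lowest of the list, with 30 called regions below it, and a maximum signal of 20. The region of maximum lay 484 bp downstream of the listed start. Upstream of the gene lay 5 further intervals, the nearest 1.08 kb away (total signal 20133, maximum signal 18) and the largest a 4448 bp interval 32.3 kb away (total signal 61227, maximum signal 31). Intervals covered 6.61% of Dlk1 with its flanks, more than for 69.8% of protein-coding genes. All 6 lay at or upstream of Dlk1, and none between Dlk1 and Meg3.

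Meg3, the maternally expressed lncRNA gene of the same cluster, had no interval over its 30734 bp at 109540996 to 109571729. The stretch without intervals ran from 109454096 to 109594508, 140 kb, and thus also spanned the sequence between Dlk1 and Meg3. Its 2 listed starts were 53.5 kb and 49.1 kb from an interval. The first has 13 CpG, a CCAAT box and 2 TATAAA matches, and 28.5% of lncRNA starts with 11 to 15 CpG had an interval within 1 kb. Further along the cluster, 2 intervals of 1 called region (total signal 51445, maximum signal 29) lay inside Rtl1, a retrotransposon-derived gene of the paternal copy. At the far end of the lncRNA Mirg an interval of 3636 bp reached 33130 in total signal and 35 in maximum signal, whereas Rian, Dio3 and Dio3os had none. Intervals covered 3.07% of Meg3 with 100 kb at either side, more than for 61.7% of lncRNA genes. From Dlk1 to Dio3, 829 kb, 9 intervals covered 2.13% of the sequence.

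The first interval in Rtl1, at 109594509 to 109597075, carried the only microRNA hairpins of any of the 10 domains that lay under an interval. Chosen after these values had been seen, the 4 hairpins were those of Mir434, Mir432, Mir3071 and Mir136, of 19 hairpins in the Meg3 domain and of 58 between Dlk1 and Dio3. Of all 1228 microRNA genes, 14.6% had an interval. The hairpins of Mir136 and Mir3071 overlap on opposite strands. One mature sequence of each is shown, 5′ to 3′, with the seed (bases 2 to 8) in capitals. The 7 mature sequences of these hairpins have 7 different seeds.
mmu-miR-434-3p: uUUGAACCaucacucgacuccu
mmu-miR-432: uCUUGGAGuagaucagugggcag
mmu-miR-3071-5p: aCUCAUUUgagacgaugaugga
mmu-miR-136-5p: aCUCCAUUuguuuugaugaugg
The interval began 3 bases inside the Mir434 hairpin. The hairpin of Mir770, inside Meg3, was 30.7 kb from an interval, that of Mir675, inside H19, was 41.6 kb away and that of Mir483, inside Igf2, 120 kb.

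Slc38a4, which encodes an amino acid transporter, was accessible at one of its 3 listed starts. The gene lies at 96994816 to 97055956 on chromosome 15. The interval over its first start (2510 bp, at 97053969 to 97056478) reached 29367 in total signal and 27 in maximum signal, above 34.7% and 20.4% of called regions at protein-coding starts. Its region of maximum lay 46 bp upstream of the start, in a window with 5 CpG, 2 CCAAT matches and 1 GGGCGG match. Of protein-coding starts with 3 to 5 CpG, 14.1% had an interval within 1 kb. The other listed starts were 22.8 kb and 15.3 kb from an interval. Towards the 3′ end, 2 intervals of 1 called region reached 32310 in total signal and 15 in maximum signal. No interval lay in the 100 kb at either side. Farther off, its paralog Slc38a2 (total signal 30409) and Amigo2 (29343) each had a gene-end interval. Slc38a1 had none within 1 kb of an end, but 1 over its body, and the nearest was 1.06 kb from an end.

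Peg3, which encodes a zinc finger protein, lay in the longest of the stretches without intervals that held one of the 10 genes. The gene is at 6703892 to 6730462 on chromosome 7, and no interval was called from 6364387 to 10494213, a stretch of 4130 kb that was shorter than only 45 others in the list. Counted by gene, 11.7% of protein-coding genes were farther from an interval than Peg3. The whole cluster from Zim2 to Usp29 had 0 intervals, and none of 7 matched neighbours, among them Zim1, Zim2, Zim3 and Usp29, had one at a gene end. Its promoter window has 13 CpG and 2 CCAAT matches on the opposite strand, and 53% of protein-coding starts with 11 to 15 CpG had an interval within 1 kb. The surrounding sequence was also poor in intervals. Of the 46 protein-coding genes within the stretch, 34 are vomeronasal or olfactory receptor genes, and of 149 protein-coding genes within 5 Mb but outside the Peg3 domain 18.1% had a gene-end interval, or 27.6% without receptor genes. The part of these neighbours in the absence of intervals at Peg3 was not tested.

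Gnas, the gene of the stimulatory G-protein alpha subunit, was the most covered by intervals of the 10. It lies at 174284320 to 174346744 on chromosome 2. Intervals, 4 in number, covered 29.1% of the gene, and 12 covered 20.7% of the gene with its flanks, more than for 92.6% of protein-coding genes. Of its 4 listed starts, the downstream 3 lay under an interval of 5581 bp (174326261 to 174331841, total signal 84438, maximum signal 49). Its region of maximum lay 246 bp upstream of the last start, which has 40 CpG. The first start, 16 CpG, was 9.79 kb from an interval. An interval of 4062 bp at 174294115 to 174298176 (total signal 63662, maximum signal 34) covered the upper end of Gnasas1, the antisense RNA also called Nespas. The highest maximum signal over any of the 10 genes, 64, lay towards the 3′ end of Gnas, in a called region of 2 intervals, the larger of 9340 bp, with a total signal of 97181. It is this interval, and not those at the starts, that meets the gene-end rule. The neighbours Nelfcd and Ctsz shared a called region with a total signal of 139988. On chromosome 2 as a whole 51% of protein-coding genes had a gene-end interval. Within 5 Mb of Gnas, outside its domain, 41.9% did.

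**Figure D2:**
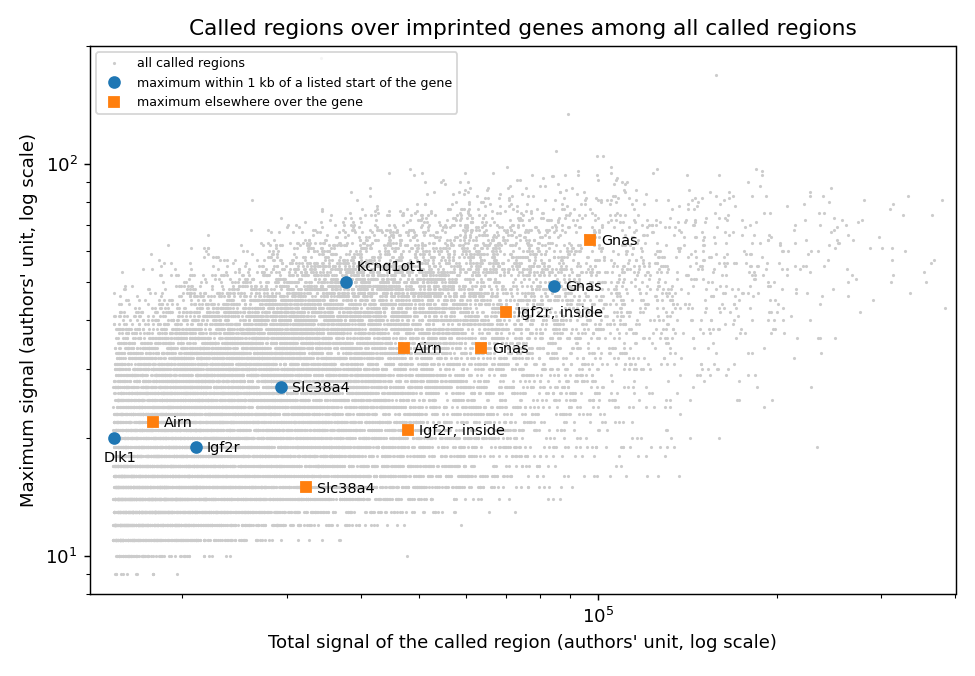
Total signal (horizontal) against maximum signal (vertical), both log scales in the authors' unit, of called regions over the imprinted genes (blue circles, maximum within 1 kb of a listed start; orange squares, maximum elsewhere over the gene) and of all called regions (grey; those beyond the axes are not shown). Dlk1 sits at the left edge at 15361, and the Gnas regions reach 97181.

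Across the set, 7 of 18 listed starts of 9 genes had an interval within 1 kb. These were 6 of 14 coding starts, against 46.2% of all protein-coding starts, and 1 of 4 lncRNA starts, against 17.6% of all lncRNA starts, both near the background. The last 3 Gnas starts shared 1 interval, so the starts are not separate observations. The region of maximum lay 23 to 46 bp upstream of the start at Igf2r, Kcnq1ot1 and Slc38a4. At Dlk1 it lay 484 bp downstream, and in the interval over the last 3 Gnas starts 246 bp upstream of the last. Over all 11934 pairs of a listed start and an interval, 39.3% had it within 100 bp, and the median distance was 154 bp. By CpG number the accessible starts did not form one class. Igf2r (34) and the last 3 Gnas starts (27, 28 and 40) were CpG-rich, whereas Kcnq1ot1 (9), Dlk1 (9) and Slc38a4 (5) were not. For lncRNA starts with 6 to 10 CpG the share with an interval was 16.8%, and for protein-coding starts in that class 29.6%. Letters alone did not separate the groups of printed windows either. CCAAT occurred in Kcnq1ot1 (3 matches) and Slc38a4 but also in Peg3 and Meg3, and in 37.4% of all 32851 promoter windows. GGGCGG occurred in Igf2r and Slc38a4 and also in Airn, and in 35.7% of windows. Dlk1 had neither. TGCCGC, the core recognised by ZFP57 when methylated, was found in the first Meg3 window and the second Igf2 window, and in 11.6% of all windows. GCCATNTT, a YY1 sequence, was found at the third Slc38a4 start alone, and in 6.05% of all windows.

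**Figure D3:**
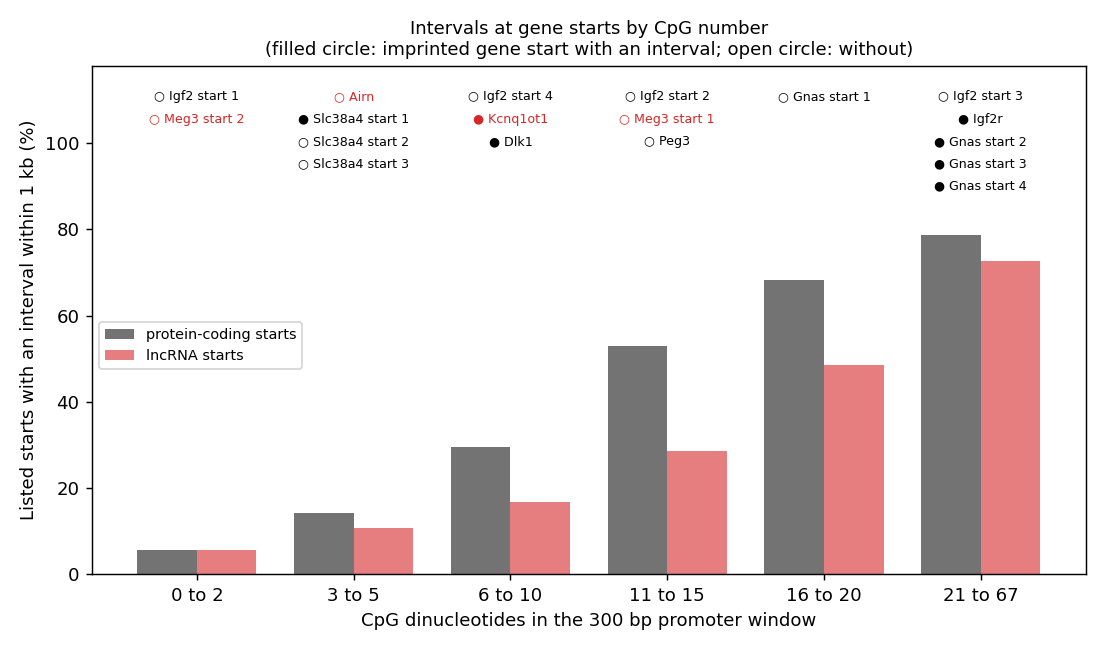
Share of listed starts with an interval within 1 kb (vertical, percent) by the number of CpG dinucleotides in the promoter window (horizontal), for protein-coding (grey) and lncRNA starts (red). Names above the bars are the starts of the imprinted genes, filled circles with an interval and open circles without; Slc38a4 start 1 is in the class where 14.1% of protein-coding starts have one.

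Distance to the nearest interval ranged from 0 kb at Kcnq1ot1, Igf2r, Gnas and Slc38a4 to 340 kb at Peg3, measured from the nearer gene end. Of protein-coding genes, 11.7% were farther from an interval than Peg3 and 20.7% farther than Igf2. Of lncRNA genes, 45.6% were farther than H19, 54.4% farther than Meg3 and 61.2% farther than Airn. The 10 genes with 100 kb at either side made up 7 separate stretches of 2022 kb with 36 intervals in 30 called regions, which covered 5.56% of the sequence. The median share covered per gene was 2.63% over the 10, 2.95% over all protein-coding genes and 1.88% over all lncRNA genes. Its range over the 10 was 0% (Igf2 and Peg3) to 20.7% (Gnas). A domain without any interval occurred for 2 of the 10, both among the 6 coding genes, and all 4 lncRNA genes had at least 1. Among all genes, 77% of protein-coding and 69.8% of lncRNA genes had at least 1, while 5024 of 21887 and 3844 of 12727 had none. Some of the 10 domains overlap, so they are not separate observations.

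**Figure D4:**
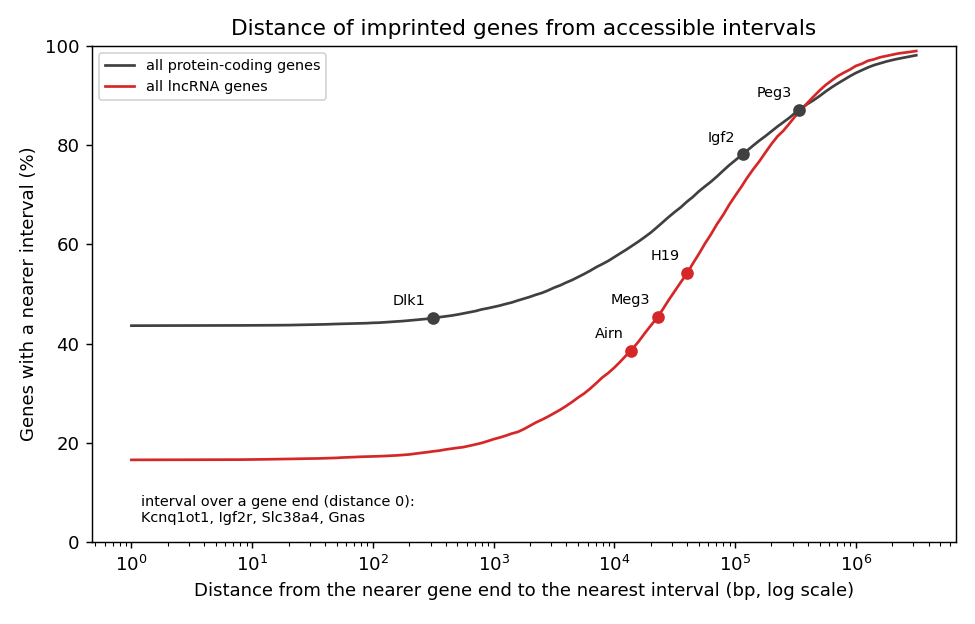
Cumulative share of genes (vertical, percent) with an interval nearer to a gene end than the distance on the horizontal axis (bp, log scale), for all protein-coding genes (grey) and all lncRNA genes (red), with the imprinted genes placed on the curve of their class. Peg3 and Igf2 lie far to the right, at 340 kb and 115 kb, and 4 genes at distance 0 are named in the panel.

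Of 47 listed neighbours found in the annotation, 19 had a gene-end interval (40.4%). The coding neighbours had one in 17 of 38 cases (44.7%), against 47.4% of all protein-coding genes, and the lncRNA neighbours in 1 of 6, against 20.8% of all lncRNA genes. The 19 genes shared 15 called regions, so they are not separate observations. The counts ran from 5 of 7 around Gnas, 2 of 3 around Slc38a4, 4 of 8 in the Dlk1 cluster and 8 of 17 in the distal part of chromosome 7 to 0 of 7 around Peg3. Around Igf2r, none was present at Slc22a2, Slc22a3, Mas1 or Plg. Of 52 other imprinted genes found, 15 had a gene-end interval (28.8%), and 23 had one over the body. The 50 coding genes among them had one at a gene end in 28% and over the body in 44%, against 47.4% and 52.8% of all protein-coding genes. No test of this difference was made, and some of these genes share a called region. The highest total signals among them were at H13 and Mcts2, which lies inside H13 (208050, in the same called region), Axl (63519), Ago2 (62916), Zrsr1 (55019) and Chrac1 (45532). In alphabetical order, Ampd3, Asb4, Atp10a and Blcap were the first without an interval within 1 kb of a gene end, and Atp10a had 1 over its body, 1.13 kb from the nearer end.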

How the data were processed

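ATAC-seq profiles were made of 6 samples, and the values used were 1 list of intervals for the Ezh2 -/- cells. Samples were grouped by their genotype and treatment labels. The submitters' processing notes name Bowtie2 2.2.9, deepTools, SEACR and mm10, with neither order nor settings. Not stated are the threshold for calling, whether reads were shifted for Tn5, and the way replicates were joined. Of the list's 6 columns, the fourth was read as the total signal, a score in the authors' unit as deposited, and the fifth as the maximum signal as deposited. Of all intervals, 79.5% contain their own region of maximum and 4768 are pieces of a called region that appears more than once, so signals are per called region and widths per interval.

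Genes, starts and sequences came from RefSeq (GRCm38.p6). Overlap of 1 bp or more was required, with a window of 1000 bp around either gene end, with the gene body, or with the body plus 100 kb. Listed starts are 250 bp inside the 5′ edge of the promoter windows, and 9 of the 10 genes had one. Shares of all genes are given as the background, with no test. Named were all 10 genes, their listed neighbours, and of other imprinted genes up to 6 ranked on total signal, plus the 4 earliest in the alphabet that lacked one. The genes and lists were chosen with earlier results of these data known. Of 49 listed neighbours 47 were found, and of 53 other imprinted genes 52. The stretches without intervals, the microRNA hairpins and the comparison with all called regions at starts were added after the data had been seen. Alternatives covered windows, overlaps, flanks and stricter sets of intervals. Python 3.11.15, numpy 2.4.6, pandas 2.3.3 and matplotlib 3.10.9 were used. The overlap lookup was tested on simulated data.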

Additional observations from a re-analysis of the deposited data

How the results depend on the processing

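The same 5 genes (Kcnq1ot1, Igf2r, Dlk1, Gnas and Slc38a4) had an interval at a gene end with windows of 500 and 2500 bp, with an overlap of at least 200 bp, with only intervals that contain their region of maximum, and with listed starts in place of both ends. Above the median total signal 3 remained (Kcnq1ot1, Gnas and Slc38a4), where 32.7% of protein-coding and 13.3% of lncRNA genes had one. Above the upper quartile 1 remained (Gnas), where 19.6% and 7.88% did. Intervals over the gene body remained at 3 genes above the upper quartile (Igf2r, Airn and Gnas). The shares just given are for gene ends, and the share of all genes for the body was not computed at this cut. The 36 intervals of the domains became 16 above the upper quartile and 63 with flanks of 250 kb. The covered share, 5.56%, was 4.59% above the median, 3.3% above the upper quartile, 4.26% with intervals that contain their maximum, 5.33% with flanks of 50 kb and 4.51% with flanks of 250 kb. These sets hold fewer intervals or other lengths of sequence by construction. Of the 47 neighbours, 8 had a gene-end interval above the upper quartile, beside the 19.6% and 7.88% of all genes given above. At a listed start 11 had one. Among all genes with a listed start, 46.9% of protein-coding and 18.6% of lncRNA genes did. How many of the neighbours have a listed start was not counted. Of the 52 other imprinted genes, the stricter sets left 9 (median) and 6 (upper quartile). For protein-coding genes as a whole these sets left 32.7% and 19.6%, as given above. The remaining settings stayed within 1.5 times of each count. No paired analysis was possible because the list has no value per replicate and no second group was analysed here. With no read counts, an absent interval says only that none passed the authors' threshold.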
